A study of Mus musculus with 18 samples.

Results

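The response of IL-4 knockout lung to 4 days of low oxygen was measured on 6 Illumina mouse bead arrays, of the 18 arrays in the series. Each array held total lung RNA of 1 animal and reads a transcript as the brightness of a short bead-bound probe. Members were taken by their genotype and treatment labels: 3 IL-4 KO mice kept in a chamber at 10% O2 (KO hypoxia) and 3 IL-4 KO mice kept in a chamber open to room air (KO normoxia). All were male mice of 8 to 12 weeks on the C57BL/6 background, and the KO normoxia animals carry the same gene disruption as the KO hypoxia animals. The study set out to profile lung vascular inflammation under hypoxia that depends on IL-4, and 6 wild-type (WT) arrays, 3 in room air and 3 at 10% O2, served here as the outside comparison. The labels do not say how the Il4 gene was disrupted. Whole lung was used, so that for any transcript fewer cells of a type and less RNA per cell cannot be told apart.

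Interleukin-4 is a cytokine of type 2 immunity that signals through its receptor and the transcription factor STAT6, and among its best known targets in mouse macrophages and lung are Retnla, Chil3 and Arg1. Low alveolar oxygen constricts the small pulmonary arteries and, when it persists, leads to growth of the vessel wall, with dividing endothelial, smooth muscle and adventitial cells and new collagen and elastin. Cells also sense oxygen directly through the hypoxia-inducible factors HIF-1alpha and HIF-2alpha, whose targets include glycolytic enzymes and vascular growth factors.

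The probe of Il4, the disrupted gene, had normalized log2 intensities of 5.72, 4.97 and 5.63 in KO normoxia and of 5.86, 5.37 and 5.58 in KO hypoxia. In WT lung it read 8.26, 8.13 and 7.67 in room air and 7.64, 7.28 and 7.25 at 10% O2. All 6 KO arrays lay below all 6 WT arrays, as the genotype labels state, although whether the probe lies in the disrupted part of the gene is not given. Lung identity was plain on every KO array: surfactant protein C (Sftpc) lay between 15.43 and 15.58, the club cell secretoglobin Scgb1a1 between 15.43 and 15.66, the alveolar type 1 marker Ager between 14.82 and 15.01, and the endothelial marker Pecam1 between 11.83 and 12.35. Between 60.2% and 64.2% of probes were detected on each lung array, and across probes the arrays of a group correlated at r = 0.98 to 0.991.

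The KO normoxia arrays also carried transcripts of the liver. The mean log2 intensity of 31 hepatocyte genes, called the liver level below, was 12.13, 10.47 and 9.84 on KO normoxia arrays 1 to 3, and 8.12, 8.80 and 8.92 on the KO hypoxia arrays. It lay between 6.99 and 8.25 on the 6 WT arrays. Fga, which encodes the fibrinogen alpha chain that hepatocytes secrete, read 15.13, 13.43 and 12.71 in KO normoxia against 10.78, 11.16 and 11.35 in KO hypoxia. The groups did not overlap for the liver level, so that in the KO arrays low oxygen and a low liver level cannot be fully told apart. For this reason genes of a hepatocyte list are given apart, and the number of each list's genes that passed is also given from a model that holds the liver level as a covariate. Named genes that passed only without that covariate are given with their adjusted p from it. As the liver level separates the KO groups, that model can estimate their difference less precisely. A call can be lost there with little change in size. Lox kept a log2 change of 1.19 with the covariate against 1.17 without it, whereas that of Fga went from -2.66 to -0.21.

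**Figure D1:**
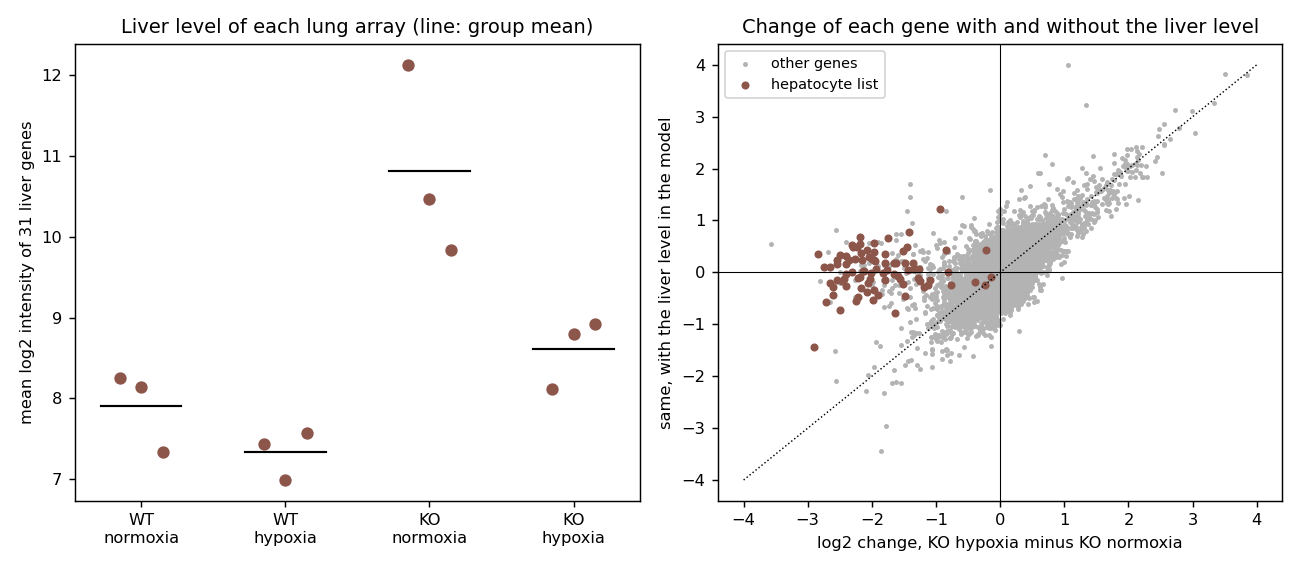
Left, the liver level (mean normalized log2 intensity of 31 hepatocyte genes) of each of the 12 lung arrays by group, with a line at the group mean; KO normoxia 1, at 12.13, is the highest. Right, the log2 change of each of 12571 genes between KO hypoxia and KO normoxia (x axis) against the same change with the liver level in the model (y axis); genes of the hepatocyte list (brown) have a median of -1.99 on the x axis and 0.03 on the y axis, and the dotted line marks equal values.

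Of 12571 genes tested with limma's moderated linear model, 1104 (8.78%) passed a Benjamini-Hochberg adjusted p of 0.05, 624 of them higher in KO hypoxia (4.96%) and 480 lower (3.82%). At an unadjusted p under 0.05 the number was 2616, and the median log2 change over all genes was 0.03. By the spread between arrays alone, the 3 KO hypoxia values lay wholly above the 3 KO normoxia values for 15.1% of genes and wholly below for 12.1%, 27.2% in all. Of the 86 measured genes of the hepatocyte list 74 fell and 0 rose, which leaves 1030 called genes outside the list, 624 higher and 406 lower. With the liver level in the model 165 genes passed (1.31%), 154 of them also among the 1030, of which 117 rose and 37 fell. For the lists below, the shares of all genes to set beside each count are 4.96% higher and 3.82% lower. In the model with the liver level the share is 1.31%.

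Outside the liver genes, the lists with the largest shares of genes that rose in the KO lung at 10% O2 were those of DNA replication (24 of 24), mitosis (26 of 28) and collagens (13 of 17), and 9 of 23 immediate early genes fell. The 12 largest rises that passed with and without the liver level were, in order, Ntrk2, Retnla, Eln, Pbk, Ptx3, Tnc, Prc1, Top2a, Spag5, Fignl1, Cdk1 and Cep55, with log2 changes from 3.85 down to 2.46. The 12 largest falls by the same rule were Igfbp3, Cyp1a1, Fosb, Ces1f, Esm1, Hilpda, Gsta2, Plvap, Bmp6, Cyp4b1, Fmo1 and D130043K22Rik, from -2.56 to -1.07. By the rule that chose them, their KO groups do not overlap.

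**Figure D2:**
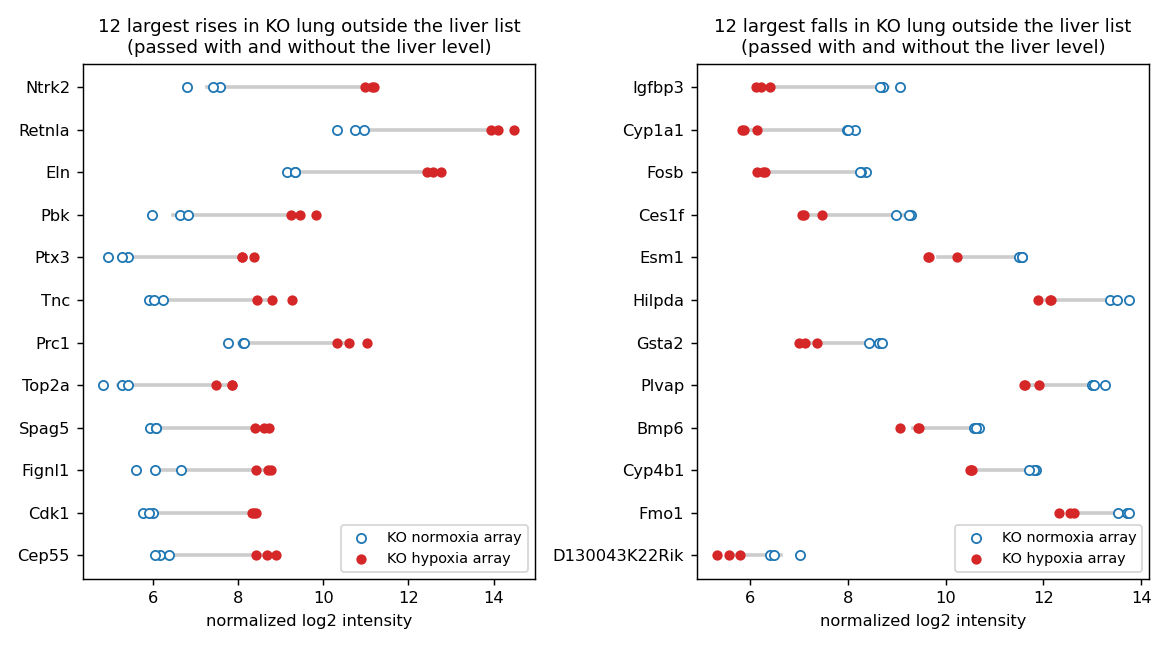
Normalized log2 intensity (x axis) of the 12 largest rises (left) and 12 largest falls (right) outside the hepatocyte list among genes that passed with and without the liver level, on each KO normoxia array (open blue) and each KO hypoxia array (red); the grey bar joins the group means. Of the genes shown Ntrk2 moves furthest upward, by 3.85, and Igfbp3 furthest downward, by -2.56.

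Several of the rising genes belong to the mitotic machinery, and their promoters are shown here because many such genes share a pair of DNA elements, the cell cycle genes homology region (CHR), which binds the DREAM and FOXM1 complexes, and the CCAAT box. The sequences run 5' to 3' on the gene's own strand from 250 bases before to 20 bases after the start site, from RefSeq on build GRCm38.p6. Capitals mark the CHR letters TTTGAA and the CCAAT letters, either read forward or as the reverse complements TTCAAA and ATTGG. Cdk1, the kinase that drives entry into mitosis, lies at chr10:69352893-69353162 on the minus strand, Prc1, a microtubule bundler of the central spindle, at chr7:80294201-80294470 on the plus strand, and Cdc20, an activator of the anaphase-promoting complex chosen for display after its values were seen, at chr4:118437324-118437593 on the minus strand. Retnla, at chr16:48842359-48842628 on the plus strand, is shown because it is the best known IL-4 target among the rising genes, and its capitals mark the letters of a STAT6 site, TTC and GAA with any 4 bases between them.
Cdk1: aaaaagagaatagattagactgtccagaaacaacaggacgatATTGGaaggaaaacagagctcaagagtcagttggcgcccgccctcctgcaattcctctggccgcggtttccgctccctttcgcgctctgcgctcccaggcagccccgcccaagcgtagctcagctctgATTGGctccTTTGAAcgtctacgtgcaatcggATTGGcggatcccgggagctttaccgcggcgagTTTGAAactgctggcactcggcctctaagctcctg
Prc1: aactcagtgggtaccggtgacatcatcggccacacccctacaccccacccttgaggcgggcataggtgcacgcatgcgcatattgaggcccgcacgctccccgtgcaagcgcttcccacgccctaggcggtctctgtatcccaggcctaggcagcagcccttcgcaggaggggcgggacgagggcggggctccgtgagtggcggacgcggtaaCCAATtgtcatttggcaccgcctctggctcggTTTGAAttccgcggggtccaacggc
Cdc20: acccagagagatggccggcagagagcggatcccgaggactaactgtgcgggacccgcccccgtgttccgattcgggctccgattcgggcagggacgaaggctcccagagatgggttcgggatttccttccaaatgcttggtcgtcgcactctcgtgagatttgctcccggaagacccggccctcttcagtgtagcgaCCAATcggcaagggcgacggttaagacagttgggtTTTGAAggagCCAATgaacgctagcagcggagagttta
Retnla: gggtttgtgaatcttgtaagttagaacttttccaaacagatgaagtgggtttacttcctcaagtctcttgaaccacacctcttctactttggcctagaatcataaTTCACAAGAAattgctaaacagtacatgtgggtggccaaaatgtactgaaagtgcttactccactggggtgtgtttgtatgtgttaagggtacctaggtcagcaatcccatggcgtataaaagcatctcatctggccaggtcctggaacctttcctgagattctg

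The letters were searched on both strands in windows that extend from 250 bases before the start site to 50 after it. Cdk1 holds 2 CHR matches and 3 CCAAT matches, Prc1 holds 1 of each, and Cdc20 holds 1 CHR and 2 CCAAT matches. Over 27025 mouse promoters 18.1% hold the CHR letters, 37.9% the CCAAT letters and 7.12% both. Over the 9316 promoters of genes tested the shares are 12.5%, 38.3% and 5.16%. Of the 23 promoters found for measured genes of the mitosis list 18 (78.3%) hold CHR letters and 15 (65.2%) hold both, whereas of 22 promoters of the DNA replication list 3 (13.6%) hold CHR letters and 2 (9.09%) both. The CCAAT letters are in 65.2% of the mitosis promoters and in 59.1% of the replication promoters. The Retnla window holds 1 match to the STAT6 letters, 145 bases before the start site. Of all promoters 6.99% hold these letters, and of those of genes tested 5.37%. These are matches of letters, not measured binding.

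Transcripts of the cell cycle rose together. Mean log2 deviations from the 12-array mean over the 28 measured mitosis genes lay between -1.01 and -0.76 on the KO normoxia arrays and between 0.69 and 1.08 on the KO hypoxia arrays. Of these 28 genes 26 rose and 0 fell, with a median log2 change of 1.81, against a background of 4.96% of genes called higher. With the liver level in the model 13 of the 28 passed, and the median was 1.60.

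Cdk1 read 6.01, 5.77 and 5.91 in KO normoxia against 8.36, 8.41 and 8.32 in KO hypoxia. The KO hypoxia arrays agree closely and sit well above the other group, 5.54-fold higher with a log2 change of 2.47 ± 0.21 (SE, n = 3 against 3; limma adjusted p = 1.9e-05). Prc1 read 7.77, 8.12 and 8.14 against 10.61, 11.03 and 10.32, a 6.24-fold rise (log2 2.64 ± 0.23, limma adjusted p = 2.4e-05). Pbk, a kinase active in mitosis, moved most of the mitosis list, from 5.98, 6.63 and 6.82 to 9.45, 9.83 and 9.24, which is 8.17-fold. Cdc20, whose promoter is given above, rose from 7.07, 7.50 and 7.78 to 9.65, 9.92 and 9.65 (limma adjusted p = 1.8e-05). Top2a, the topoisomerase that untangles chromosomes, was detected on 1 of 3 KO normoxia arrays and on 3 of 3 KO hypoxia arrays, with a log2 change of 2.55 that starts from values near background. Spag5 and Cep55, proteins of the spindle and of the final cut between daughter cells, rose by 2.55 and 2.46, and Fignl1, an ATPase of DNA repair, by 2.52.

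All 24 measured genes of the DNA replication list rose, with a median of 1.19. Their mean deviations ran from -0.70 to -0.51 in KO normoxia and from 0.59 to 0.79 in KO hypoxia. Uhrf1, which guides maintenance methylation to newly copied DNA, read 8.12, 8.15 and 8.35 in room air and 10.41, 10.49 and 10.31 at 10% O2, 4.60-fold higher (limma adjusted p = 1.3e-05). Pole, the catalytic subunit of a leading-strand polymerase, rose 3.92-fold, and Mcm5, a subunit of the replicative helicase, rose 3.54-fold. Cdc6, which loads that helicase, rose by 1.84 but did not pass with the liver level in the model (log2 1.34, limma adjusted p = 0.09). Only 6 of the 24 genes passed in that model, whose median for the list was 1.01. A run of histone H2A genes of the H2ac type, chosen after their values were seen, rose in 9 of 13 cases by 0.86 to 2.11; these genes are near-identical copies, so that their probes may not tell them apart.

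Matrix genes were the next group. Of 17 measured collagen genes 13 rose and 0 fell, with a median of 0.91, and 5 passed with the liver level in the model. Col1a1, a chain of the fibrillar collagen of scar and adventitia, read 8.99, 9.04 and 9.08 in KO normoxia against 10.94, 11.29 and 11.26 in KO hypoxia. The groups are far apart relative to their spread, a 4.37-fold difference (log2 2.13 ± 0.16, limma adjusted p = 1.1e-05). Col3a1, its partner in soft tissue, rose 2.97-fold and Col4a1, of the basement membrane, 2.77-fold. Col5a2 rose by 1.70, with an adjusted p of 0.26 once the liver level was included.

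Elastin moved most of the matrix lists. Eln, on chromosome 5, encodes the core protein of the elastic fibre and is normally made by lung and vessel cells mainly during development. It read 9.14, 9.34 and 9.33 in KO normoxia against 12.58, 12.44 and 12.77 in KO hypoxia, with no overlap. This is a 10.0-fold difference (log2 3.33 ± 0.13, limma adjusted p = 6.3e-08), the smallest adjusted p of the named genes. The microfibril protein Mfap5 rose 2.98-fold. Mfap4 rose by 1.21 and Lox, the enzyme that cross-links elastin and collagen, by 1.17, but neither passed with the liver level in the model, at adjusted p of 0.25 and 0.22. Their log2 changes in that model were 1.08 and 1.19. In all 11 of 22 measured elastic fibre genes rose and 0 fell, with a median of 0.48; leaving out KO normoxia 1 brought the number to 7, and 2 passed with the liver level in the model.

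Among 26 matricellular and proteoglycan genes 13 rose and 2 fell, with a median of 0.52, and with the liver level in the model 3 rose (Tnc, Aspn and, named after its values were seen, Sparc) and 0 fell. Tnc, tenascin-C, a matrix protein of remodelling vessels, read 6.23, 5.90 and 6.03 in KO normoxia against 9.27, 8.44 and 8.79 in KO hypoxia, a 6.86-fold rise (limma adjusted p = 8.3e-06). Aspn, a small leucine-rich proteoglycan, rose 2.75-fold, and Ccn4, a secreted matricellular signal, rose by 1.70, with an adjusted p of 0.071 with the liver level. Ccn1, of the same CCN family and an immediate early gene, fell by 1.40, with an adjusted p of 0.26 with the liver level. Of 19 matrix proteases and inhibitors 6 rose, 3 when KO normoxia 1 was left out and 2 with the liver level in the model; Mmp2, gelatinase A, rose 2.21-fold.

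Smooth muscle contractile genes moved less. Of 12 measured, 6 rose and 0 fell, with a median of 0.36; 0 passed with the liver level in the model, and from 2 to 6 passed on leaving out single KO arrays. Acta2, smooth muscle actin, read 12.95, 13.31 and 13.25 in KO normoxia against 13.84, 13.85 and 13.94 in KO hypoxia, 1.63-fold higher. Tagln, an actin-binding protein of the same cells, was 2.51-fold higher. Their adjusted p-values were 0.0036 and 0.00059, and 0.40 and 0.20 with the liver level. Their log2 changes were 0.70 and 1.33, and 0.43 and 0.80 with the liver level.

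**Figure D3:**
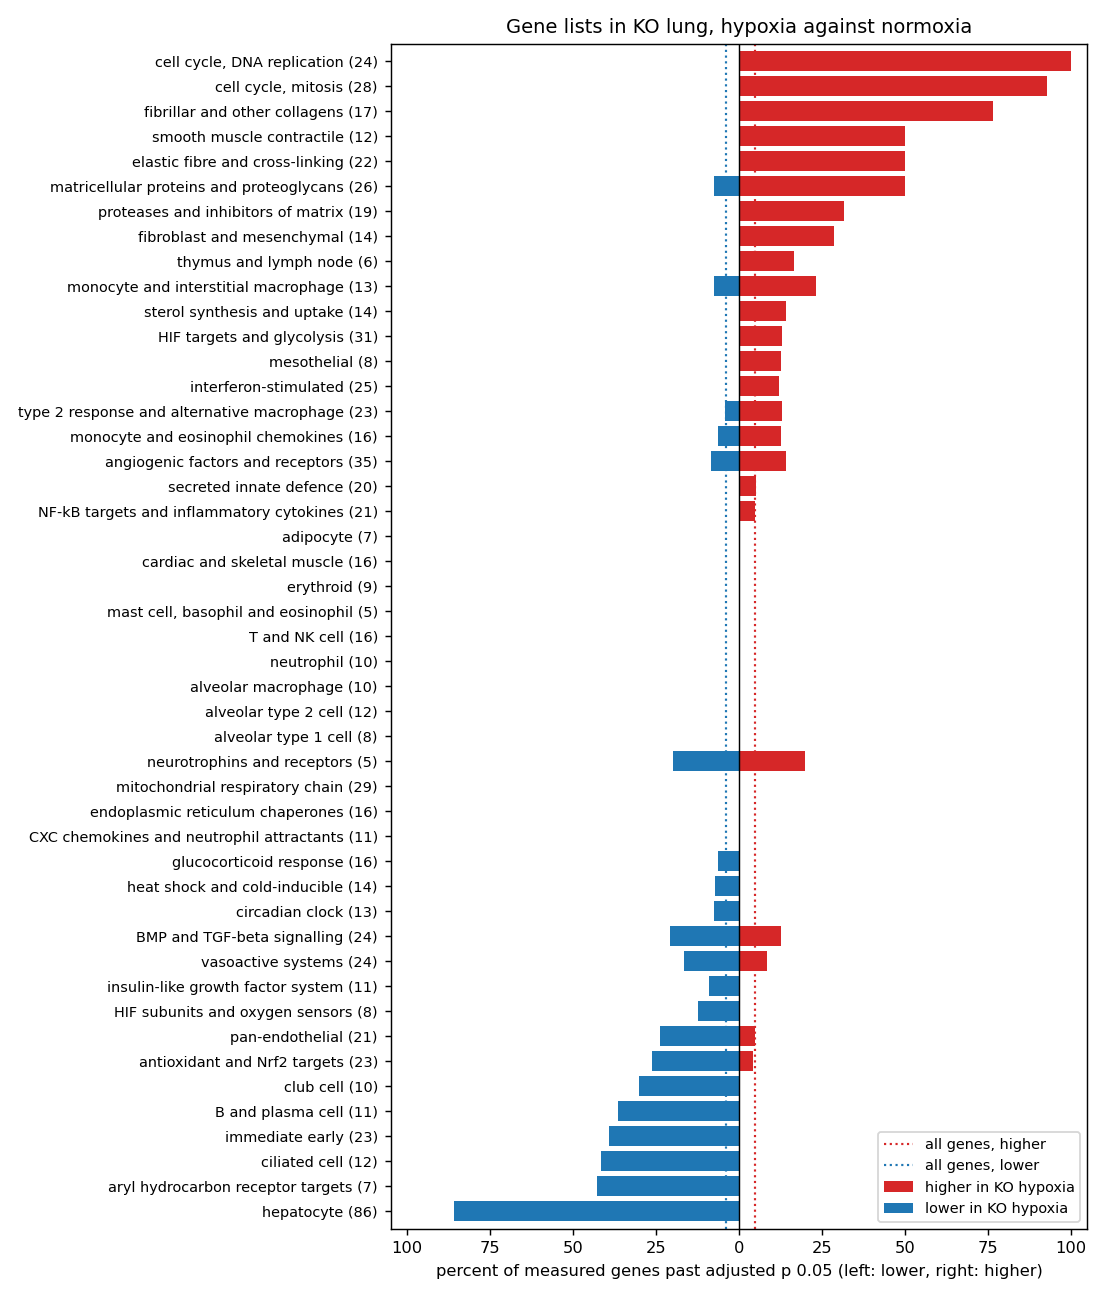
Percent of the measured genes of each list (number measured in parentheses) that passed an adjusted p of 0.05, drawn to the right when higher and to the left when lower in KO hypoxia. Dotted lines mark the same percentages over all 12571 genes, 4.96 and 3.82; the lists at the top are the cell cycle and collagen lists, and the hepatocyte list is at the bottom.

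The gene with the largest rise was Ntrk2, on chromosome 13, which encodes the receptor TrkB for brain-derived neurotrophic factor. It read 7.57, 6.80 and 7.40 in KO normoxia against 11.19, 11.14 and 10.97 in KO hypoxia. This is 14.4-fold (log2 3.85 ± 0.26, limma adjusted p = 8.3e-06), and with the liver level the log2 change was 3.81. Its ligand Bdnf went the other way, from 10.49, 10.47 and 10.53 to 9.78, 9.63 and 9.92. The groups do not overlap, and Bdnf fell by 0.72 (limma adjusted p = 0.0012). With the liver level in the model its log2 change was -0.80, at an adjusted p of 0.066. The other 3 of 5 measured genes of the neurotrophin list did not pass.

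Retnla, on chromosome 16, encodes the secreted resistin-like molecule also called FIZZ1 or HIMF, which is both an IL-4 target and a hypoxia-induced lung mitogen. It was higher in KO hypoxia, in lungs that carry the IL-4 disruption. The values were 10.75, 10.96 and 10.31 in KO normoxia against 14.10, 13.94 and 14.49 in KO hypoxia, 11.3-fold (log2 3.50 ± 0.25, limma adjusted p = 8.3e-06). In WT lung it went from 10.81, 10.88 and 10.34 to 15.55, 15.40 and 14.64, a log2 change of 4.52. At 10% O2 all 3 KO arrays lay below all 3 WT arrays. The KO change minus the WT change was -1.02 ± 0.36 (SE), which did not pass (limma adjusted p = 0.24). Of the other genes tied to IL-4, Chil3, a chitinase-like protein of macrophages, read 14.06, 14.20 and 14.35 against 14.44, 14.33 and 14.23, which overlap. Arg1, arginase 1, is also a major liver enzyme, and read 12.65, 10.99 and 10.57 in KO normoxia against 9.28, 9.31 and 9.46 in KO hypoxia; it fell by 2.06, with an adjusted p of 0.87 once the liver level was included. Of 23 measured genes of the type 2 list 3 rose and 1 fell, against 4.96% of all genes higher and 3.82% lower. The 3 were Retnla, Mrc1 (0.52) and Tgm2 (0.55). With the liver level only Retnla passed, the adjusted p being 0.28 for Mrc1 and 0.74 for Tgm2, and Tgm2 also did not pass without some of the single KO arrays.

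Of 21 NF-kB targets and cytokines 1 rose and 0 fell, and of 20 secreted defence proteins 1 rose and 0 fell, shares close to the 4.96% of all genes called higher. The riser of both lists was Ptx3, which also passed with the liver level. Ptx3, pentraxin 3, a soluble pattern recognition protein, was detected on 1 of 3 KO normoxia arrays and on 3 of 3 KO hypoxia arrays. It read 5.40, 4.94 and 5.26 against 8.38, 8.10 and 8.10, a 7.95-fold rise (limma adjusted p = 1.1e-05) from values near background, where the size of a change is less certain. Of the leukocyte adhesion molecules Vcam1 (log2 0.03), Icam1 (0.14) and Selp (0.47) none passed, and Ccl2, the monocyte attractant, was not detected on any KO array.

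Ccl8, a chemokine for monocytes and eosinophils, read 7.33, 7.58 and 7.13 in KO normoxia against 9.24, 9.33 and 10.09 in KO hypoxia, 4.61-fold higher (limma adjusted p = 8.5e-05). Ccl21a, the chemokine of lymphatic vessels and lymph nodes that draws dendritic cells and T cells, rose 2.28-fold from 11.54, 11.69 and 11.30 to 12.63, 12.75 and 12.73. Near-identical copies of Ccl21a exist in the mouse, so its probe may read several of them. Cx3cl1, the membrane-bound fractalkine of endothelium and epithelium, fell from 9.49, 9.92 and 9.74 to 8.64, 8.84 and 8.76 (1.96-fold, limma adjusted p = 0.0012). These 3 genes were all that passed of the 16 measured genes of that chemokine list, of which 3 rose and 1 fell with the liver level in the model, and of 11 CXC chemokine and neutrophil attractant genes 0 passed.

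Genes of vessels and growth factors went both ways. Vegfc, the growth factor of lymphatic vessels, read 9.52, 9.52 and 9.79 in KO normoxia against 11.20, 10.78 and 11.03 in KO hypoxia, 2.63-fold higher, and Cxcl12, a stromal chemokine that recruits progenitor cells, rose 2.35-fold. Vegfa, the best known HIF target among vascular growth factors, overlapped between groups, at 14.30, 14.52 and 14.62 against 14.57, 14.31 and 14.17. Esm1, an endothelial tip cell proteoglycan, fell from 11.50, 11.57 and 11.57 to 10.24, 9.66 and 9.65, and was 3.23-fold lower (limma adjusted p = 0.00055). The Notch target Hey1, chosen after its values were seen, fell by 0.91. Of 35 angiogenic genes 5 rose and 3 fell, against 4.96% and 3.82% of all genes, and 2 rose and 2 fell with the liver level in the model.

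Plvap, which forms the diaphragms of capillary fenestrae and caveolae, read 12.99, 13.03 and 13.26 in KO normoxia against 11.90, 11.61 and 11.62 in KO hypoxia, 2.61-fold lower (limma adjusted p = 3.2e-05). Across 21 endothelial identity genes 1 rose and 5 fell, against 4.96% and 3.82% of all genes. Their median was -0.07 against 0.03 over all genes, and with the liver level 0 rose and 1 fell. Emcn, a sialomucin of capillaries and veins, was the riser, at 0.72, and the hyaluronan receptor Lyve1 fell by 0.94, both with adjusted p over 0.05 in the model with the liver level (0.20 and 0.097). Their log2 changes in that model were 0.59 and -0.94. Bmp6, a ligand of the pathway whose receptor is mutated in heritable pulmonary hypertension, fell from 10.68, 10.58 and 10.62 to 9.44, 9.46 and 9.08 (2.46-fold). Fstl1, a secreted modulator of BMP signals, rose 2.38-fold. The receptor Bmpr2 itself did not pass, at 7.72, 7.42 and 7.84 against 7.58, 7.56 and 7.15.

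Of 24 vasoactive genes 2 rose and 4 fell, against 4.96% and 3.82% of all genes, and 0 passed with the liver level in the model. Among the falls was Agt, the angiotensinogen that hepatocytes secrete. It was not detected on any KO hypoxia array and was at least 2.73-fold lower there. With the liver level in the model its fitted log2 change was -0.11 (limma adjusted p = 0.94). Nos3, the endothelial nitric oxide synthase, read 7.57, 7.88 and 7.55 in KO normoxia against 8.66, 8.47 and 8.51 in KO hypoxia, 1.84-fold higher (limma adjusted p = 0.0047, and 0.32 with the liver level). Nos2, the inducible synthase, was the other riser, by 0.69 (0.42 as adjusted p with the liver level). Endothelin-1 (Edn1), the peptide vasoconstrictor, did not pass, at 11.20, 11.20 and 10.95 against 10.92, 10.88 and 10.89. Igfbp3, on chromosome 11, which binds insulin-like growth factors, had the largest fall outside the hepatocyte list among named genes that passed with and without the liver level, from 9.07, 8.73 and 8.66 to 6.24, 6.13 and 6.42. It was 5.88-fold lower (log2 -2.56 ± 0.15, limma adjusted p = 4.4e-06), and was the 1 gene to pass among 11 of its growth factor system.

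Most measured HIF target genes did not pass after 4 days. Of 31 measured HIF target and glycolysis genes 4 rose and 0 fell (12571 genes gave 4.96% higher), with a median of 0.07, and 0 passed with the liver level in the model. Pfkl, a phosphofructokinase, rose by 0.75 and Gapdh by 0.46 (adjusted p of 0.27 and 0.28 with the liver level), whereas the glucose transporter Slc2a1, named after its value was seen, changed by -0.30 and did not pass (limma adjusted p = 0.14). Hilpda, a lipid droplet protein induced by hypoxia in cultured cells, is not on the HIF target list. It was lower, at 13.36, 13.74 and 13.50 in KO normoxia against 12.16, 11.89 and 12.13 in KO hypoxia (2.78-fold, limma adjusted p = 0.00019). Hilpda also passed with the liver level. Epas1, which encodes HIF-2alpha, read 10.56, 10.63 and 10.57 against 9.98, 9.73 and 9.96 and fell by 0.70 (limma adjusted p = 0.0031, and 0.11 with the liver level). With the liver level its log2 change was -0.79. Hif1a overlapped between the groups.

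Of 23 measured immediate early genes, which respond to stimuli within minutes, 9 fell and 0 rose, against 3.82% of all genes called lower, with a median of -0.37. The list level ran from 0.25 to 0.36 on KO normoxia arrays and from -0.30 to -0.27 on KO hypoxia arrays. Fosb, a subunit of the transcription factor AP-1, read 8.38, 8.27 and 8.26 in KO normoxia against 6.31, 6.28 and 6.15 in KO hypoxia, 4.16-fold lower (limma adjusted p = 8.3e-06). It was the 1 gene of the 9 to pass with the liver level in the model. Atf3, a stress-induced repressor, and Egr1, a zinc finger factor, changed by -1.39 and -1.34, with adjusted p-values of 0.24 and 0.15 in that model.

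Of 7 measured targets of the aryl hydrocarbon receptor, a sensor of foreign compounds, 3 fell and 0 rose, against 3.82% of all genes lower and 4.96% higher. Leaving out single KO arrays brought the number of falls as low as 1. With the liver level in the model 2 fell, where 1.31% of all genes passed. Of 23 antioxidant genes 6 fell and 1, the extracellular superoxide dismutase Sod3, rose by 0.61, against the same shares of all genes. With the liver level 1 fell, the aldehyde oxidase Aox3, and 0 rose. Sod3 is named after its values were seen. Among the 12 largest falls were 5 enzymes, picked by that ranking and not by a list. Of these only Cyp1a1 belongs to either of the lists above. Cyp1a1, the standard target of the aryl hydrocarbon receptor, read 8.15, 7.99 and 8.01 in KO normoxia against 6.15, 5.85 and 5.88 in KO hypoxia, 4.27-fold lower (limma adjusted p = 4.6e-05). Cyp4b1 and Fmo1, oxidases abundant in lung, fell 2.40-fold and 2.24-fold, and Gsta2, a glutathione transferase, 2.69-fold. Ces1f, a carboxylesterase of both liver and lung, fell 3.89-fold. All 5 passed with the liver level in the model, where their log2 changes lay between -2.29 and -1.16.

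The 12 type 2 cell genes and the 8 type 1 cell genes held 0 calls, with medians of 0.04 and 0.06, and alveolar macrophage, neutrophil, T and NK cell, and mast cell lists held 0 calls each. Of 14 fibroblast genes 4 rose, against 4.96% of all genes called higher. All 4 were matrix genes already counted, and 2 rose with the liver level. Of 13 monocyte and interstitial macrophage genes 3 rose, against the same 4.96%, among them the complement component C1qb at 0.77 (adjusted p of 0.11 with the liver level). With the liver level 1 of the 13 rose, C1qc. Apoe, also a liver product, fell by 1.09, a call lost without some single arrays and with the liver level (limma adjusted p = 0.99).

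Some markers of airway cells fell. Of 12 ciliated cell genes 5 fell and 0 rose, with a median of -0.39, and of 10 club cell genes 3 fell, against 3.82% of all genes called lower. Without single KO arrays the calls ran from 2 to 4 and from 1 to 3, and both were 0 with the liver level in the model. The club cell list level overlapped between the groups, at 0.46, -0.08 and 0.08 in KO normoxia against -1.28, 0.22 and -0.45 in KO hypoxia, as did the values of Scgb1a1. Sntn, a protein of the ciliary tip, read 10.63, 10.10 and 10.11 in KO normoxia against 8.86, 9.39 and 9.18 in KO hypoxia, and Cdhr3, a cadherin of ciliated cells, 11.50, 11.24 and 11.58 against 10.16, 10.75 and 10.20. Array KO hypoxia 1 was lowest for both, and their adjusted p-values with the liver level were 0.32 and 0.19. Their log2 changes were -1.14 and -1.07, and -0.64 and -1.04 with the liver level. Regulators of the onset of multiciliation, chosen after their values were seen, rose instead. Ccno went from 7.12, 7.57 and 7.74 to 9.45, 9.71 and 10.08 (limma adjusted p = 2.6e-05), Mcidas was not detected in KO normoxia and was at least 1.55-fold higher, and Deup1, a scaffold of centriole amplification, rose by 1.72 (limma adjusted p = 0.00024, and 0.053 with the liver level).

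Of 11 B and plasma cell genes 4 fell and 0 rose, against 3.82% of all genes called lower, with a median of -0.52. Jchain, which joins secreted antibody units, had the largest of these 4 falls. It read 7.56, 7.25 and 7.20 in KO normoxia against 4.92, 6.01 and 5.28 in KO hypoxia. It fell by 1.93 (limma adjusted p = 0.0036). With the liver level in the model its log2 change was -1.34, at an adjusted p of 0.37. In that model 0 of the 11 genes passed, and the list median was -0.54. The list level was 0.81, 0.70 and 0.45 on KO normoxia arrays 1 to 3, in the same order as the liver level. On KO hypoxia arrays 1 to 3 it was 0.04, 0.15 and -0.08, not in the order of the liver level. The part of the liver level in this result was not tested beyond the covariate.

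Markers of tissues other than lung also differed between arrays. Cardiac and skeletal muscle genes lay at -2.73 on KO hypoxia 1 against 0.56 and -0.50 on KO hypoxia 2 and 3, and the atrial myosin light chain Myl7, named after its values were seen, read 5.29, 10.20 and 9.26 on those arrays. Adipocyte genes (-1.17) and club cell genes (-1.28) were lowest on KO hypoxia 1 too. None of the 16 muscle and 7 adipocyte genes passed. Without KO hypoxia 1 the number of called genes was 645, and without KO normoxia 1 it was 719. Of the heart markers Myh6, Myl7 and Tnni3, each was detected on 2 of 3 KO hypoxia arrays and on 3 of 3 KO normoxia arrays.

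**Figure D4:**
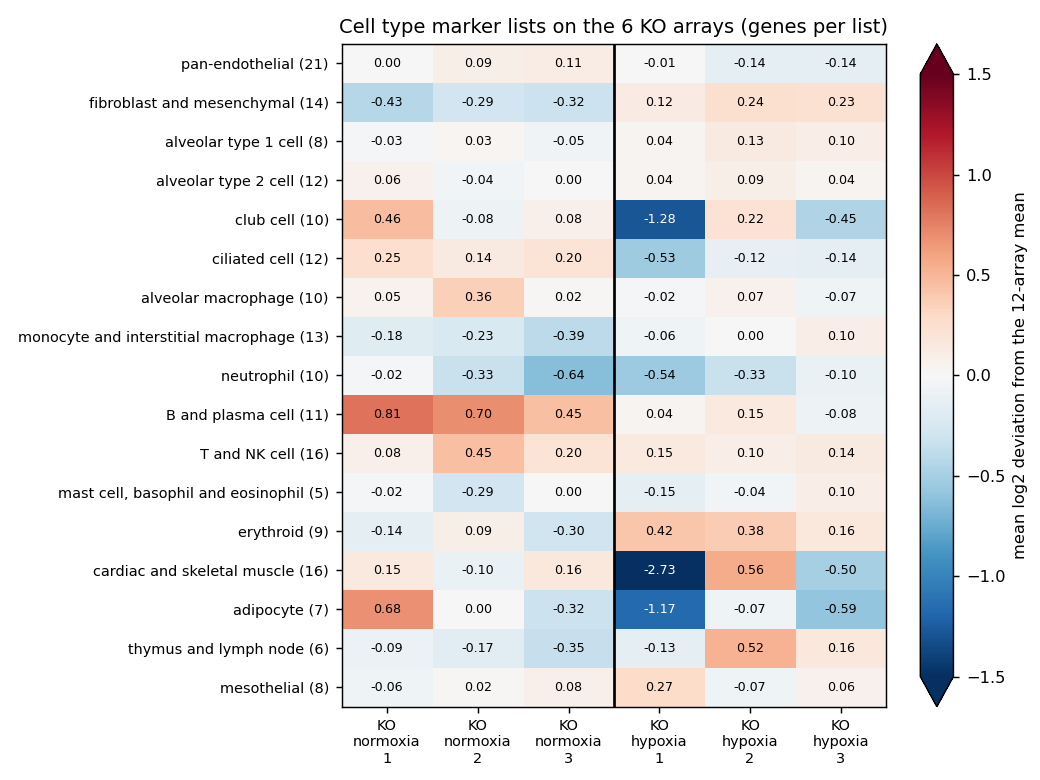
Mean log2 deviation from the 12-array mean of each cell type marker list (number of measured genes in parentheses) on the 6 KO arrays, blue when lower and red when higher. KO hypoxia 1 stands apart in the muscle list, at -2.73, the adipocyte list, at -1.17, and the club cell list, at -1.28, and the B and plasma cell list is highest in KO normoxia.

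The liver genes give the other large block. Cyp2a5, a cytochrome of liver and nasal tissue, read 12.43, 11.12 and 10.88 in KO normoxia against 7.46, 9.72 and 8.53 in KO hypoxia, Hpx, the heme carrier hemopexin, 14.63, 12.55 and 11.50 against 9.49, 10.02 and 10.65, and the acute phase protein Saa2 11.39, 9.42 and 8.79 against 6.74, 7.06 and 7.63. KO normoxia 1 was the highest KO array for all 3 genes. Cyp2a5, although on the list, did not follow the liver level across genotypes: WT room-air lung, with its low liver level, read 11.49, 11.84 and 11.64, within the range of KO normoxia. Their log2 changes were -2.90, -2.84 and -2.72, with limma adjusted p-values of 0.01, 0.022 and 0.0042. Orm2, Orm1 and Fga, also secreted by hepatocytes, had changes of -2.74, -2.66 and -2.66, with limma adjusted p-values of 0.017, 0.02 and 0.008. Without KO hypoxia 1 the calls of Hpx, Orm1 and Orm2 were lost, and without KO normoxia 1 or KO hypoxia 2 those of Hpx and Orm1. With the liver level in the model 0 of the 86 genes passed. Left out of the list but known from liver, Bhmt2, an enzyme of methionine metabolism, fell by 2.66, and the apolipoprotein Apof fell by 2.17. Named after their values were seen, neither passed with the liver level (limma adjusted p = 0.64 and 0.93), and Apof did not pass without KO hypoxia 1.

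Set beside WT lung, the cell cycle and collagen rises had a counterpart. In WT lung, where no array had a liver level above 8.25, 1483 genes (11.8%) passed between hypoxia and room air, 7.48% of all genes higher and 4.32% lower. Of the 1104 genes called in KO and the 1483 called in WT, 533 were called in both in the same direction and 10 in opposite directions, 49.2% of the KO calls and 36.6% of the WT calls together. The mitosis list held 26 rises in each genotype, with medians of 1.81 in KO and 1.71 in WT, and the collagen list 13 in each. Ciliated cell genes held 5 falls in KO and 4 rises in WT, and B and plasma cell genes 4 falls in KO and 2 rises in WT; no single gene of either list passed the test of the difference.

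That test, of the KO change minus the WT change, called 2 of 12571 genes (0.0159%), and 1564 at an unadjusted p under 0.05. Eln was 1 of them. In WT lung it went from 10.45, 10.72 and 10.32 to 12.43, 12.42 and 12.41, a log2 change of 1.92, and the KO change was larger by 1.41 ± 0.18 (SE; limma adjusted p = 0.041). In room air all 3 KO arrays lay below all 3 WT arrays, at means of 9.27 and 10.50. At 10% O2 the genotypes lay close, at means of 12.60 in KO and 12.42 in WT. The lowest KO hypoxia array read 12.44 and the highest WT hypoxia array 12.43. The other was Fsip1, on chromosome 2, a fibrous sheath gene first known from sperm. It read 6.52, 6.30 and 6.77 in KO normoxia against 5.78, 6.17 and 6.07 in KO hypoxia, and 5.31, 5.45 and 5.47 against 6.42, 6.43 and 6.30 in WT lung, a difference of -1.49 ± 0.20 (limma adjusted p = 0.041). Each of the 2 calls was lost on leaving out any 1 of 9 of the 12 arrays.

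The next 3 genes by p-value did not pass. Fhit, a tumour suppressor hydrolase, changed by -0.85 in KO and 0.64 in WT (limma adjusted p = 0.05), Npr3, the clearance receptor for natriuretic peptides, by -0.90 and -3.34 (limma adjusted p = 0.063), and Efcab6, a calcium-binding protein, by -1.02 and 0.43 (limma adjusted p = 0.063). Npr3 read 8.80, 9.63 and 10.14 in KO normoxia against 8.49, 8.95 and 8.44 in KO hypoxia, where the groups overlap, while in WT lung it went from 12.20, 12.04 and 11.94 to 8.83, 8.61 and 8.73. The number of calls of this test ran from 0 to 198 on leaving out single arrays. The highest number came without WT normoxia 3, on which the neutrophil list level was -0.63, against 2.12 and 1.12 on WT normoxia 1 and 2.

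**Figure D5:**
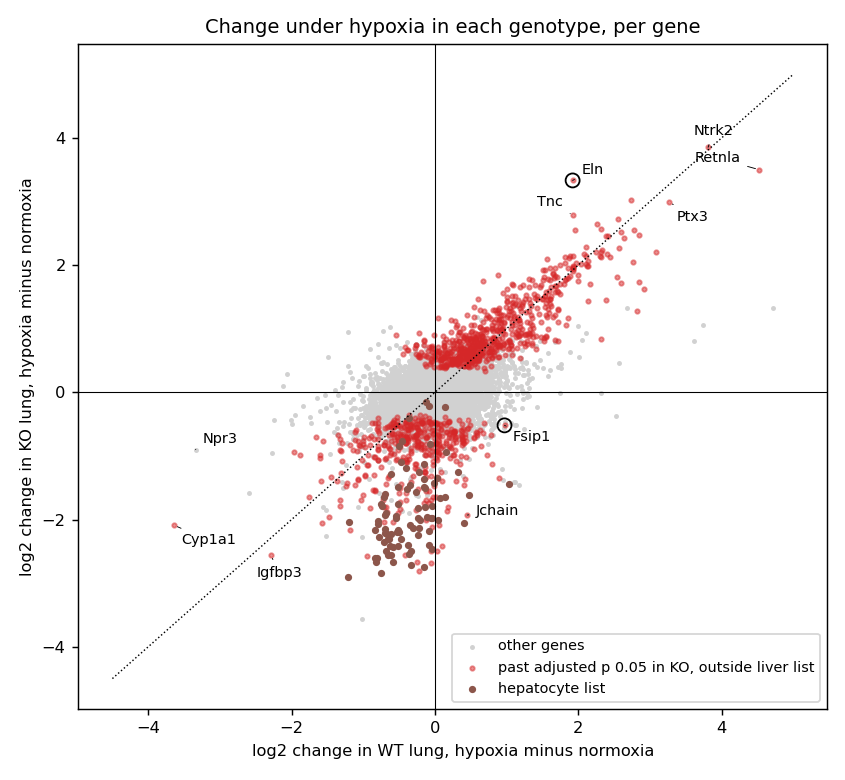
Log2 change between hypoxia and normoxia of each of 12571 genes in WT lung (x axis) and in KO lung (y axis); red points passed in KO outside the hepatocyte list, brown points are the hepatocyte list and the dotted line marks equal change. The circled genes, Eln and Fsip1, are the 2 that passed the test of the difference, and the hepatocyte list lies low on the y axis, at a median of -1.99 against -0.40 in WT.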

How the data were processed

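Total lung RNA was extracted with Trizol and columns and labelled with an amplification kit, 1 array per animal, per the labels' protocols. The authors deposited, per the file headers, a non-normalized signal intensity and a detection p-value of each probe on each array, and the submitters' processing notes name the software BeadStudio. The log2 table that the authors deposited matched the log2 signal shifted to a common array median of 8 for 25697 of 25697 probes within 0.02. The 6 columns of cultured cells were not used, and chip positions are not stated in the labels.

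With limma 3.58.1 in R 4.3.3, neqc took each array's background from the detection p-values, quantile normalized the 12 lung arrays with an offset of 16 and took log2, which compresses folds of dim probes. Detection at p under 0.05 on 3 or more arrays kept 17112 probes, and the brightest probe stood for each gene. Of 25697 probes 23978 had 1 gene symbol, 0 several and 1719 none; 93 called genes are probes with no symbol. lmFit and eBayes over the 4 groups (8 residual and 4.27 prior degrees of freedom) gave two-sided p-values, Benjamini-Hochberg adjusted over 12571 genes. The number of arrays, 3 animals a group, limits the precision. The p-values and SEs rest on the spread between animals pooled over the 4 groups, WT included, and moderated by the prior. They do not measure the spread of the KO groups alone. A gene detected on no array of its dimmer group, 86 of those called, is given only as a bound: the brighter mean against the higher, per array, of the lowest detected signal and its own value.

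Lists are described by counts and medians, without set tests. Members, lists, comparisons and the rule for named genes were chosen with earlier results of these data known. The rule took the 12 largest rises and falls that pass with and without the liver level and do not overlap, up to 4 called members per list, 20 genes of the study, the 5 smallest p-values of the difference between genotypes and the 6 largest hepatocyte falls; genes outside it are marked as such. Sex-linked genes were not named. Alternatives changed the background correction, normalization, filter, probe summary, moderation, samples and liver list, and left out each lung array in turn.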

Additional observations from a re-analysis of the deposited data

Results flagged for a closer look

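Eln and Fsip1 stood out because the change under hypoxia differed between the genotypes by the test of that difference. The log2 change of Eln was larger in KO than in WT lung by 1.41, and that of Fsip1 was lower in KO by -1.49, both at a limma adjusted p of 0.041. Over the alternatives run the difference lay between 1.30 and 1.5 for Eln and between -1.74 and -0.71 for Fsip1, with limma adjusted p-values up to 0.19 and 0.18. The call of Eln was lost under 12 of 21 alternatives and that of Fsip1 under 13. Both were lost on leaving out any 1 of 9 of the 12 arrays, with adjusted p-values up to 0.11, and held without WT normoxia 3, KO hypoxia 1 or KO hypoxia 2. With the liver level in the model the differences were 1.37 and -1.54, at an adjusted p of 0.18 each. Fsip1 lay between 5.31 and 6.77 on all 12 arrays, near the dim end of the scale, and Eln between 9.14 and 12.77.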

How the results depend on the processing

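Of 23 alternatives, most left the number of calls within 1.5 times of 1104, or of 1030 outside the hepatocyte list. With the liver level as a covariate 165 genes passed in both counts. Without KO normoxia arrays 1 and 2 the counts were 316 and 305. Without single arrays they ran from 645 (without KO hypoxia 1) to 1186 and from 619 to 1111. The share of calls that were higher moved from 56.5% to 73.9% with the covariate and to 68.7% without the 2 arrays. The 2 calls of the difference between genotypes became 74 without background correction, 32 in the authors' log2 table, 140 with a trended robust prior, and 0 with no filter, with the covariate or without KO normoxia arrays 1 and 2; without single arrays the number ran from 0 to 198. The causes were not tested. Of 111 called genes among those the rule named, 82 passed without each single array, 69 were lost with the covariate and 40 passed under all alternatives run. Signs reversed only for genes that had not passed or, with the covariate, for liver genes: with the covariate Chil3 was -0.07, Edn1 0, Hmgb1 -0.09, Hpx 0.35, Orm1 0.11, Orm2 0.10 and Vcam1 -0.02; without KO normoxia arrays 1 and 2 Chil3 was -0.01, Hif1a -0.03 and Il4 -0.03. Without single arrays Vcam1 ran from -0.03 to 0.09, Il4 from -0.07 to 0.31 and Hmgb1 from -0.10 to 0.24. No paired analysis was possible because the labels give the 2 KO groups no shared replicate numbers. Probes close to background, such as those of Il4 and Ccl2 in KO lung, give changes that the arrays cannot resolve.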
